A study of Mus musculus with 2 samples.

Results

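Axon guidance genes encode cues and the receptors that read them, and 68 of the 19938 genes measured in the series belong to this group. They were chosen by name: every gene with a probeset of its own whose symbol marks it as a semaphorin, plexin, neuropilin, netrin, netrin receptor (Dcc, Neo1 or Unc5), Slit, Robo, ephrin or Eph receptor. The 68 genes were read by 73 probesets, sets of short probes for the same transcript, and a gene's value was the mean of its probesets. There were 34 ligands and 34 receptors. Ephb2, which the naming rule also covers, had no probeset of its own and was not analysed here.

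The cells were i-OSKM-ESC, a mouse embryonic stem cell line of strain 129 made from KH2 cells, in which doxycycline switches on transgenes for Klf4, c-Myc, Oct4 and a Sox2 with an epitope tag. Both groups carried these transgenes. The plus doxycycline group received the drug at 4 µg/mL for 24 hours, and the no doxycycline group received fresh medium without it. Each group was 1 whole-transcript array, so the differences below carry neither a p-value nor an error between replicates, and precision is limited by this number of arrays. Cells without the transgenes but with doxycycline were not analysed here, so the drug and the factors cannot be told apart.

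Guidance ligands steer growing axons and migrating cells by attracting or repelling them through receptors at the cell surface. Secreted semaphorins act through neuropilins and plexins, netrins attract through Dcc and Neo1 and repel through Unc5 receptors, Slits act through Robo receptors, and ephrins, which stay tethered to the membrane, act on Eph receptor kinases in neighbouring cells. Outside the nervous system the same families act in vessel growth, tissue boundaries and the shape of epithelia, and Eph receptors are known on embryonic stem cells.

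Of the 68 genes, 4 were at least 2-fold higher with doxycycline and 0 lower, beside 0.552% and 0.471% of all 19938 genes. The 4 were the plexin gene Plxnc1, the netrin receptor gene Unc5a, the netrin gene Ntn1 and the neuropilin gene Nrp2. The RefSeq promoter table (build GRCm38.p6) held 3 of them, and bases before the transcript start it lists are shown for these, as the called genes whose upstream DNA can be read. Which start the probesets read is not known. Capitals mark GGGCGTG or GGGTGTG on either strand, short versions of the GC-rich element that Krüppel-like factors such as Klf4 bind. The Plxnc1 stretch is chr10:94945016-94945095 on the minus strand, cut to the bases outside the annotated gene, which leaves out those nearest to the listed start. The Unc5a stretch is chr13:54949161-54949410 on the plus strand, which lies inside the annotated gene before an internal transcript start. For Nrp2 it is chr1:62703067-62703316 on the plus strand, before the first start of the gene.
Plxnc1: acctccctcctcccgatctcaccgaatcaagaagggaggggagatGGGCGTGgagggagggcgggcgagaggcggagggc
Unc5a: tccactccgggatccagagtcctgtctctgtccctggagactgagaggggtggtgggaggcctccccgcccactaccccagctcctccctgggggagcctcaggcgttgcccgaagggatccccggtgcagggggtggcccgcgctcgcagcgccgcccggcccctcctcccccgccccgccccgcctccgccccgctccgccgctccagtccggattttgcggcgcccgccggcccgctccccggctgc
Nrp2: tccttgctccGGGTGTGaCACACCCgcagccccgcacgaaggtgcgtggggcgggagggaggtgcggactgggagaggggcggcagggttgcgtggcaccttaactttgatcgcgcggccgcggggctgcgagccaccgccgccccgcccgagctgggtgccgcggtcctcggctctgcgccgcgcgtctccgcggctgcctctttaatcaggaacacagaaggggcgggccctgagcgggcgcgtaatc

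The letters GGGCGTG or GGGTGTG occurred on either strand within 250 bases before a start in 17 of the 58 guidance genes in the promoter table, or 29.3%, against 18.2% of 17492 protein-coding genes. Guidance promoters were richer in G and C than those of protein-coding genes in general, with a median of 64.4% against 55.6% of bases, and the part of base composition in the first difference was not tested. The octamer ATGCAAAT, the letters that Oct4 binds, occurred in 0 of 58 guidance genes and 1.80% of protein-coding genes. CATTGT, a core of Sox sites, was present in 12.1% of guidance genes and 10.9% of protein-coding genes. The Myc element CACGTG was present in 6.90% and 7.61%. None of these last 3 was found in the stretches printed above, and the motifs overlapped nowhere in them.

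Values are RMA values on the log2 scale, a background-corrected and normalised signal per probeset, and a difference is the value with doxycycline minus the value without it. The expression filter kept a gene that reached 6.48, the median over the whole table, in at least 1 array. This scale has no detection call, so a value below the filter may be background. The array probesets of Sox2, Pou5f1 (Oct4), Klf4 and Myc were examined first. Sox2 had 10.88 with doxycycline and 11.89 without (2.01-fold lower), while Pou5f1, Klf4 and Myc differed by 0.41, 0.43 and 0.35. The sources used here do not say whether these probesets read the transgenes, so they do not settle the array labels, on which all directions below rest. All 10 pluripotency markers listed passed the filter in this culture, Nanog and Zfp42 among them. Differences were negative in 8 of these 10, beside 6215 of all 11191 genes that passed, and their median was -0.46.

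Of the 68 guidance genes, 39 passed the filter. With doxycycline 4 of these were higher by 2-fold or more and 0 were lower by as much. A gene that passed and differed by that much is named a called gene below. Among all 11191 genes that passed, the shares were 0.92% higher and 0.768% lower. Without the filter the same 4 of 68 were higher and 0 lower, against 0.552% and 0.471% of all 19938 genes. In bulk RNA, fewer cells of a type and less RNA per cell cannot be told apart. Only 27 of the 39 passed in both arrays. A further 8 passed by the array with doxycycline alone, Plxnc1 and Unc5a among them, and 4 by the array without it. When a gene had to pass in both arrays, 2 higher genes stayed, Ntn1 and Nrp2, and 0 were lower, against 0.677% and 0.561% of 10339 genes.

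The differences of 55 of the 68 guidance genes, or 80.9%, were under 0.5 in size, against 92.1% of all genes. The median over all 68 was 0.09 against 0.01 over all genes. Differences were positive in 41 of the 68, or 60.3%, against 51.6% of all genes, and in 36 after the loess trend, a smooth curve of difference on expression level, was removed. Of the 39 that passed, 20 were positive, or 51.3%, against 44.4% of all genes that passed. A gene that passed by 1 array alone has its sign fixed by the filter. This holds for the 8 that passed with doxycycline alone, all positive, and the 4 without it, all negative. Of the 27 that passed in both arrays, 12 were positive and the median was -0.07. Of the 29 genes below the filter, which have no firm level, 21 were positive. Among all genes of like expression the median difference was positive too, at 0.04 to 0.11 over the levels of these 29. Ligands had a median of 0.03, which was -0.0017 with the loess trend removed, and receptors had 0.12 and 0.06. At the looser limit of 1.5-fold, 8 of the 39 genes that passed were higher and 3 lower, beside 3.24% and 3.8% of all genes that passed. Some of these passed only by the array in which they were higher. Of the 27 that passed in both arrays, 4 were higher and 2 lower by 1.5-fold, and the share over all such genes is not given here. Without the filter these counts were 9 and 3 of 68, beside 2.61% and 2.56% of all genes.

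**Figure D1:**
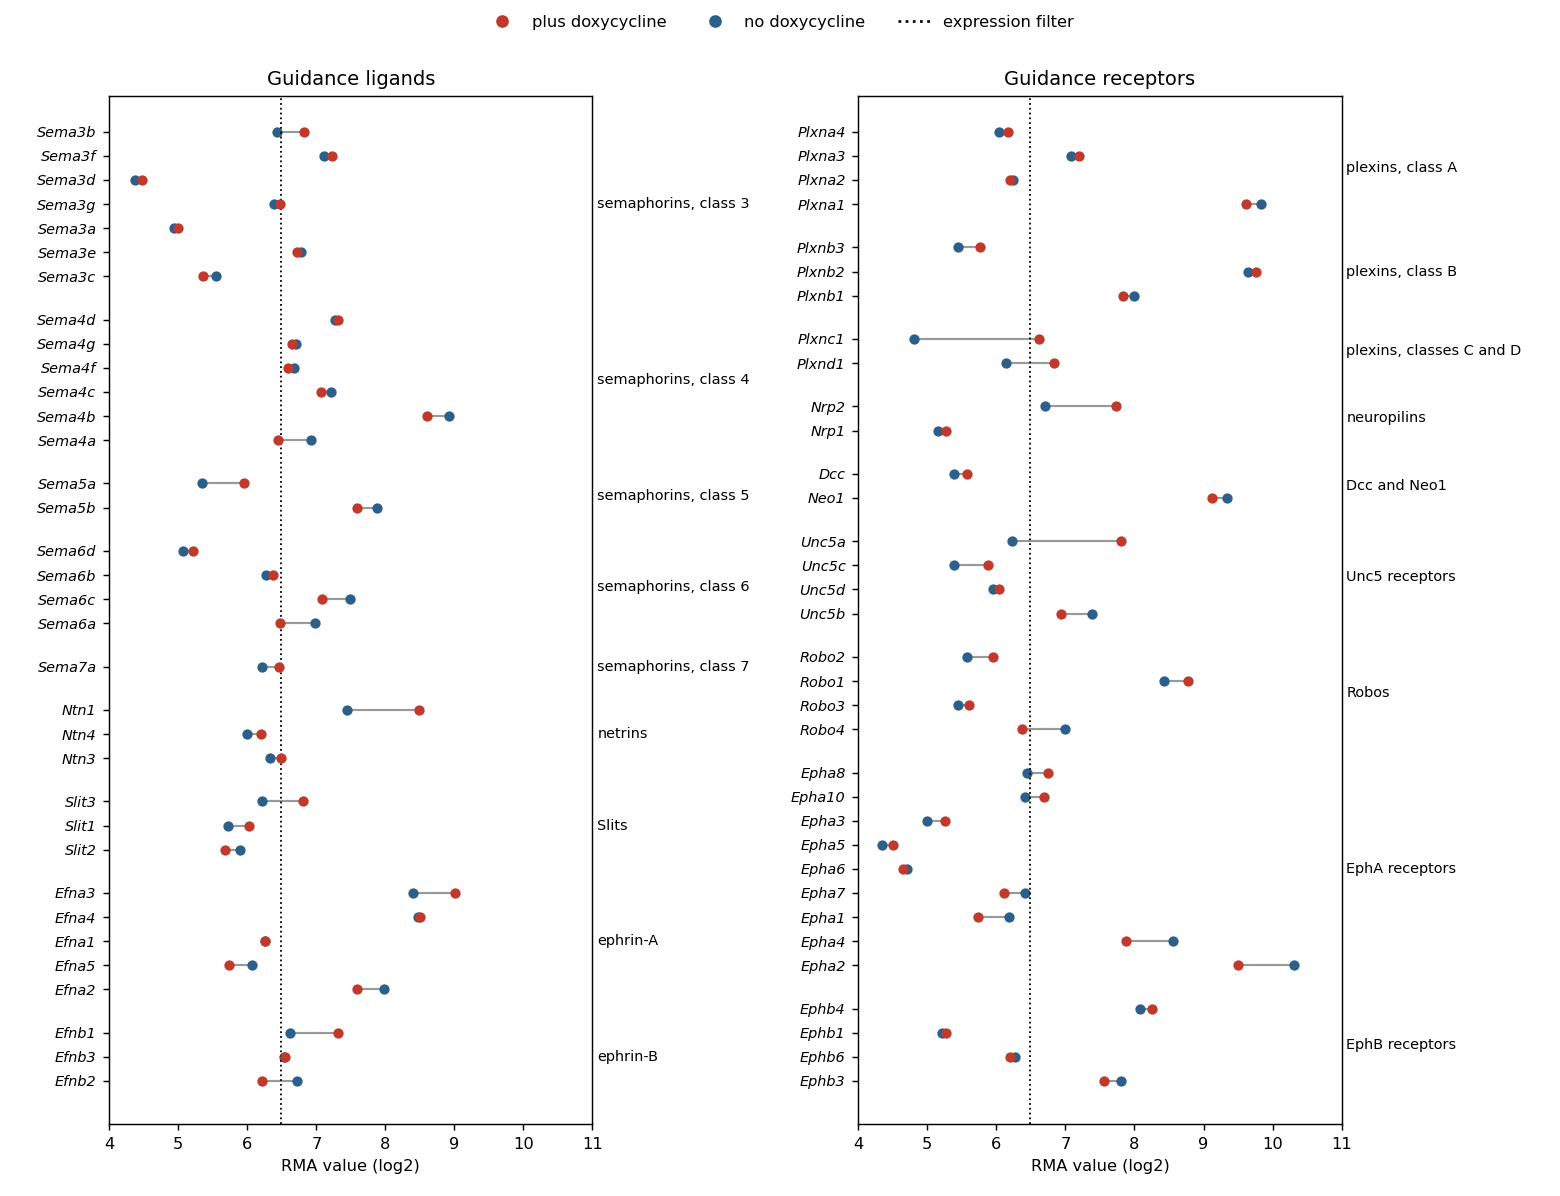
RMA values (log2) of the 34 ligands (left) and 34 receptors (right) in the array with doxycycline (red) and without (blue), 1 array each with no error bars, grouped by family, with the expression filter of 6.48 as a dotted line. The longest bars are those of Plxnc1, Unc5a, Ntn1 and Nrp2. Levels of different genes come from different probes and are not compared.

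Plexins and neuropilins, the receptors of semaphorins, held 2 of the 4 called genes. Plxnc1, the receptor of the membrane-anchored semaphorin Sema7a, had 6.62 with doxycycline and 4.81 without. The value without doxycycline lay far below the filter and may be background, so the difference of 1.80 has no firm size. Counted from the filter instead, the value with doxycycline was higher by only 0.13. With an offset of 32 added to both linear signals, which shrinks differences of dim genes, the difference was 1.11, below the 1.27 of Unc5a.

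Nrp2, a co-receptor that joins class 3 semaphorins to A plexins and also binds VEGF-C, had 7.73 with doxycycline and 6.71 without, both above the filter. The difference of 1.03 (2.04-fold) was matched or exceeded by 6 of 997 genes of like expression, Nrp2 included, which describes the spread between genes and not between cultures. The offset brought it to 0.84, under 2-fold. The paralog Nrp1 stayed below the filter in both arrays, with 5.26 and 5.16.

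The plexin gene Plxnd1, a receptor for Sema3e known from vessel patterning, had 6.83 with doxycycline and 6.13 without. This difference of 0.70 (1.62-fold) stayed under 2-fold, as did 0.51 with the offset. The value of Plxnd1 without doxycycline was below the filter and may be background, so its difference has no firm size. In the A class Plxna1 had 9.61 against 9.84 and Plxna3 had 7.20 against 7.08, while Plxna2 and Plxna4 were below the filter. In the B class Plxnb2 had 9.76 against 9.64 and Plxnb1 had 7.83 against 7.99, and Plxnb3 was below the filter. All 7 plexins of these A and B classes thus lay between -0.23 and 0.31, well inside 1.5-fold.

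The semaphorins themselves contained no gene at 2-fold. Of the 20, 12 passed the filter, differences were positive in 10 and negative in 10, and the median was -0.01. In class 3, the secreted ligands of neuropilins, 3 of 7 passed. Sema3b had 6.81 with doxycycline and 6.42 without (difference 0.39), Sema3f differed by 0.12 and Sema3e, the ligand of Plxnd1, by -0.07. Sema3b passed by the array with doxycycline alone. Sema3a, Sema3c, Sema3d and Sema3g were below the filter with differences between -0.19 and 0.10.

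Class 4 was the one semaphorin class in which every gene passed the filter. Differences were negative in 5 of its 6 genes, beside 6215 of all 11191 genes that passed. The count was also 5 with the loess trend removed, quantile normalisation or the offset. Those of Sema4c, Sema4f and Sema4g were under 0.167 in size, the SD between probesets of the same gene. Sema4a, known from immune cells and retina, had 6.44 with doxycycline and 6.92 without (-0.48). It passed by the array without doxycycline alone. Sema4b had 8.61 against 8.92 (-0.32) and Sema4c, a ligand of Plxnb2, had 7.06 against 7.21 (-0.14). Sema4f and Sema4g were at -0.09 and -0.06. Sema4d, the ligand of Plxnb1, was read by a pair of probesets with differences of 0.06 and 0.02. None of the 6 reached 1.5-fold.

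In the transmembrane class 6, Sema6a had 6.48 with doxycycline and 6.98 without (-0.50), and Sema6c had 7.08 against 7.49 (-0.41). Sema6a lay just below the filter with doxycycline and passed by the other array alone. Sema6d was below the filter, as was Sema6b, whose 2 probesets carry identical values on each array and so count as 1 measurement. Class 5 was split, with Sema5b at 7.58 against 7.87 (-0.29) and Sema5a at 5.95 against 5.34. Sema5a, at 0.61, was the only gene below the filter that reached 1.5-fold. Sema7a, the ligand of Plxnc1 and anchored to the membrane by a lipid, had 6.46 against 6.21 and did not pass the filter.

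**Figure D2:**
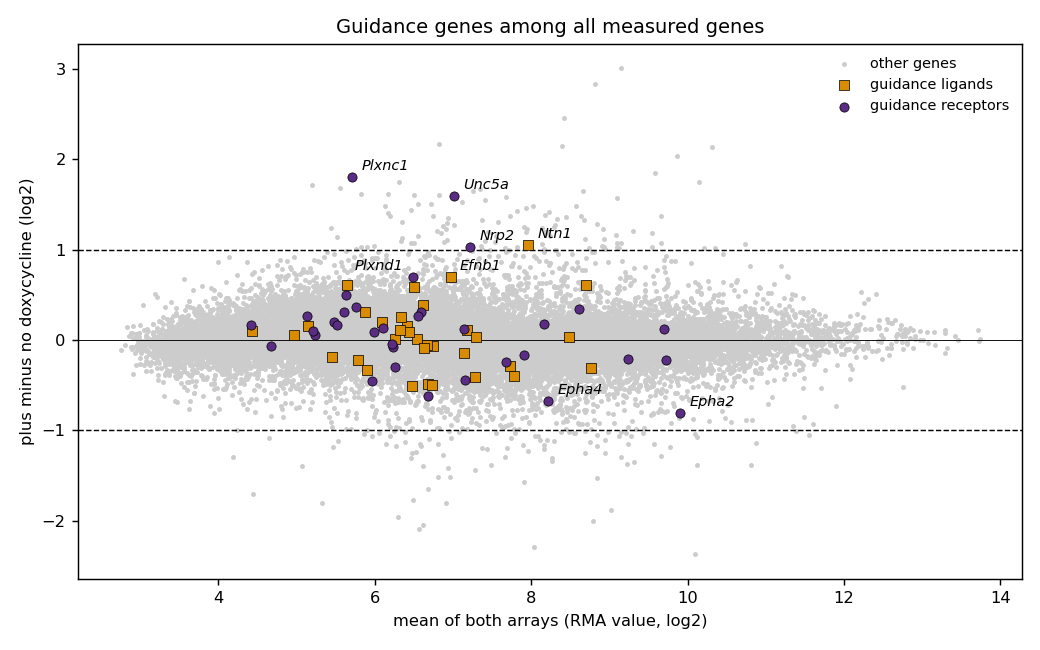
Difference between arrays (plus minus no doxycycline, log2) against the mean of both arrays for all 19938 genes (grey), guidance ligands (orange squares) and guidance receptors (purple circles); dashed lines mark 2-fold. Plxnc1, Unc5a, Ntn1 and Nrp2 lie above the upper line, and Epha2 is the lowest guidance gene at -0.81.

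The netrin group held the other called pair, a ligand and a receptor. Ntn1 encodes netrin-1, a laminin-related secreted cue that can attract or repel. It had 8.49 with doxycycline and 7.44 without, both well above the filter. The difference of 1.05 (2.07-fold) was reached by 8 of 996 genes of like expression, Ntn1 included, and it became 1.13 with the loess trend removed and 0.93, under 2-fold, with the offset. Ntn3 had 6.49 against 6.34, at the filter, and Ntn4, a netrin of basement membranes, had 6.20 against 5.997, below it.

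Unc5a, a receptor through which netrin-1 repels and which can signal cell death when netrin is absent, had 7.81 with doxycycline and 6.22 without. The value without doxycycline was below the filter and may be background, so the difference of 1.59 has no firm size. It was 1.27 with the offset and 1.33 when counted from the filter, both above 2-fold. Its paralog Unc5b, known from vessels, went the other way with 6.93 against 7.38 (-0.44, under 1.5-fold). Unc5c (5.88 against 5.39) and Unc5d (6.03 against 5.95) were below the filter. Of the receptors through which netrins attract, Neo1, which encodes neogenin, had 9.13 against 9.34 (-0.21), and Dcc had 5.58 against 5.38, below the filter.

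Among Slits and Robos no gene reached 2-fold. Robo1, a Slit receptor, had 8.78 with doxycycline and 8.43 without (0.35). Robo4, the Robo of endothelial cells, had 6.37 against 6.99 (-0.62, or 1.54-fold lower) and so passed the filter by the array without doxycycline alone. Slit3 passed by the array with doxycycline alone, at 6.80 against 6.21 (0.59, or 1.505-fold higher). The lower value of Robo4 and that of Slit3 may be background, so their differences have no firm size. With the offset these were -0.47 for Robo4 and 0.44 for Slit3, both under 1.5-fold. Slit1, Slit2, Robo2 and Robo3 were below the filter in both arrays. Robo1 and Robo2 are neighbours among the measured genes of their chromosome and had like differences (0.35 and 0.37), whereas the neighbours Robo4 and Robo3 had -0.62 and 0.17.

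Ephrins and Eph receptors showed differences in both directions, all under 2-fold. Epha2, an Eph receptor of epithelia and early embryonic cells, had 9.50 with doxycycline and 10.31 without. This was the largest negative difference of the 68 genes (-0.81, or 1.76-fold lower), at or below which lay 10 of 997 genes of like expression, Epha2 included. Epha4, which binds ephrins of both classes, had 7.88 against 8.56 (-0.67, or 1.60-fold lower). Both were well above the filter in both arrays, and both stayed under 2-fold with the loess trend removed, after quantile normalisation and with the offset.

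The other EphA receptors that passed, Epha8 (6.75 against 6.44) and Epha10 (6.68 against 6.42), did so by the array with doxycycline alone. The 2 probesets of Epha10 differed by 0.27 and 0.26. Epha1, Epha3, Epha5, Epha6 and Epha7 were below the filter with differences from -0.45 to 0.26. In the EphB class Ephb4, known from veins, had 8.25 against 8.07 (0.17) and Ephb3 had 7.56 against 7.81 (-0.25). Ephb6, a receptor that lacks kinase activity, and Ephb1 were below the filter, and the probesets of Ephb1 disagreed in sign (-0.25 and 0.36).

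Of the ephrin-A ligands, Efna3 had 9.01 with doxycycline and 8.39 without, a difference of 0.61 (1.53-fold higher) reached by 28 of 997 genes of like expression. Efna4 had 8.50 against 8.47 and Efna2 had 7.59 against 7.98 (-0.40). Efna1 and Efna5 were below the filter. Efna1, Efna3 and Efna4 lie close together on their chromosome with at most 1 measured gene between neighbours, yet Efna1 and Efna4 differed by only 0.01 and 0.03. Of the transmembrane ephrin-B ligands, Efnb1 had 7.32 against 6.62 (0.70, or 1.62-fold higher) and Efnb2, the partner of Ephb4 in arteries, had 6.22 against 6.72 (-0.51). Efnb2 passed by the array without doxycycline alone. Efnb3 had 6.54 in both arrays to within 0.01.

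**Figure D3:**
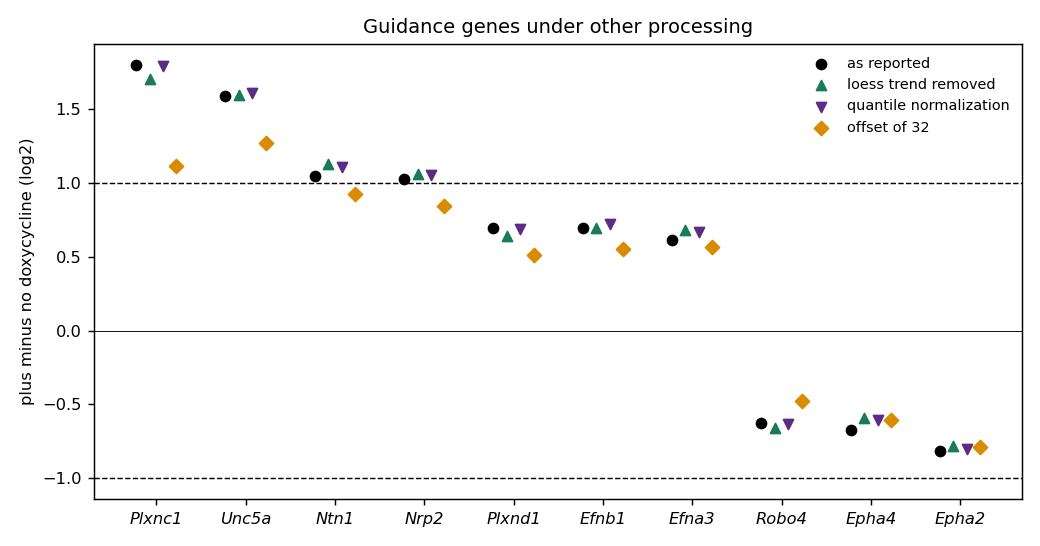
Difference between arrays (log2) of 10 guidance genes as reported (black), with the loess trend removed (green), after quantile normalisation (purple) and after 32 was added to both linear signals (orange); dashed lines mark 2-fold. With the offset, Ntn1 and Nrp2 move below the upper line while Plxnc1 and Unc5a stay above it.

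The genes that act inside the cell on guidance signals were listed separately, together with other cues and adhesion receptors, and 70 of 76 were measured. Of the 50 that passed the filter, 2 were higher by 2-fold or more, beside 0.92% of all genes that passed, and 0 were lower by as much, beside 0.768%. Both belong to the collapsin response mediators, cytoskeletal proteins that relay semaphorin signals to microtubules. Dpysl5 had 8.53 with doxycycline and 7.10 without (1.43, or 2.69-fold), and Dpysl3 had 8.998 against 7.66 (1.34, or 2.53-fold). Both stayed above 2-fold with the offset, at 1.24 and 1.21.

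The related Dpysl2 had 9.25 against 8.39 (0.85, under 2-fold), whereas Crmp1 and Dpysl4 differed by 0.18 and 0.14. Fyn, a Src-family kinase that Dcc and other receptors use, had 9.15 against 8.24 (0.91). Srgap1, a GTPase-activating protein that binds Robo1, had 8.51 against 7.61 (0.90), and Rras, a small GTPase that plexins inactivate, had 10.09 against 9.34 (0.75). The median over all 70 genes was 0.13. The 11 semaphorin mediators had a median of 0.18, the 6 Slit-Robo effectors 0.14, the 21 other cues and adhesion receptors 0.14, the 10 netrin effectors -0.03 and the 8 Eph effectors -0.11.

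**Figure D4:**
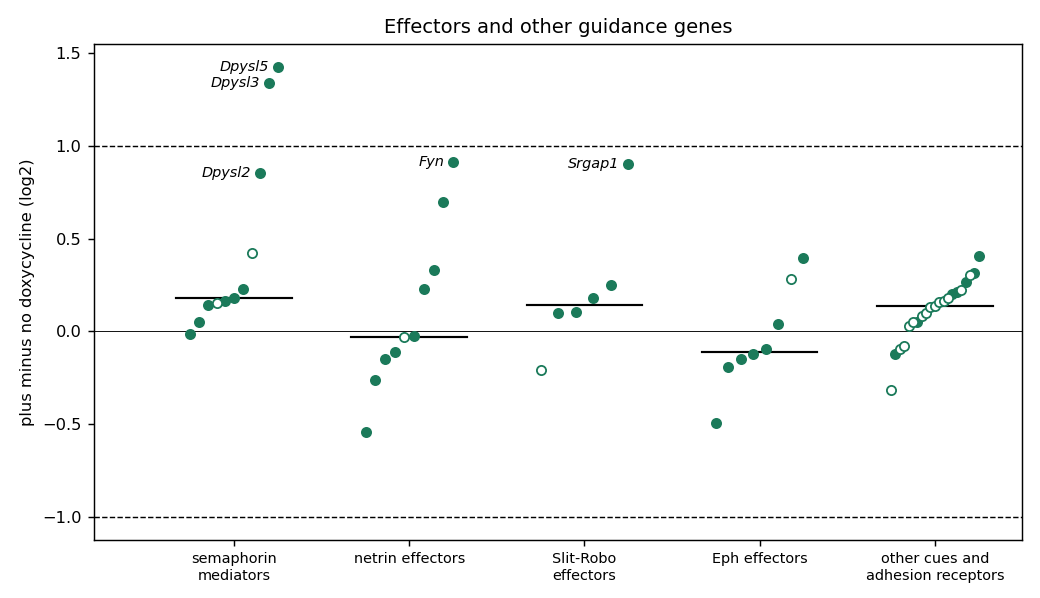
Difference between arrays (plus minus no doxycycline, log2) of 56 of the 70 guidance effectors and other guidance genes, in 5 sublists, with the median as a bar, genes that passed the expression filter filled and the others open; dashed lines mark 2-fold. Dpysl5 and Dpysl3 lie above the upper line and none of the 56 lies below the lower one.

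Markers of neural cells, in which guidance genes are best known, were read beside these values. Of 11 measured, 7 passed the filter and 3 were at least 2-fold higher with doxycycline: Elavl3 (8.77 against 7.29), Map2 (8.04 against 6.71) and Tubb3 (8.94 against 7.67). Among all genes that passed, 0.92% were higher by as much. Ncam1 (0.25) and Rbfox3 (0.54) also passed and stayed under 2-fold. The summed linear signal of the 11 markers was 7707 with doxycycline and 5167 without, most of it from Stmn2, and 1966 and 1185 when Stmn2 was left out. On the log2 scale Stmn2 had 12.49 against 11.96. No marker was at 0, and Pax6, Nes, Dcx and Neurog2 were below the filter in both arrays. Sox1 had 8.10 against 8.24. The part of this marker group in the guidance differences was not tested.

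For endothelial cells, 3 of 7 markers passed with summed signals of 904 and 718, and Cdh5, Kdr, Vwf and Tie1 were below the filter. Fibroblast markers summed to 760 and 644, with 5 of 8 passing and Postn, Lum and Dcn below the filter. Trophectoderm markers summed to 2414 and 935, of which Krt8 (11.02 against 9.27) made the larger share, while Cdx2, Gata3, Krt7 and Elf5 were below the filter. Primitive endoderm markers summed to 741 and 760, with 5 of 6 passing and Afp below the filter, and pluripotency markers to 26948 and 35198. Their part in the guidance differences was not tested either.

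The genes next to the called ones on the chromosome were compared, taking the 3 nearest measured genes on each side. Of the 24 neighbours 16 passed the filter and 0 were called. Among all genes that passed, 0.92% were called higher and 0.768% lower. Differences of the 24 ran from -0.41 to 0.81 with a median of 0.04. The largest stood beside Unc5a, where Tspan17 had 8.25 with doxycycline and 7.44 without (0.81), and the next genes on that side, Eif4e1b and Sncb, differed by 0.65 and 0.48. On the other side of Unc5a, Hk3, Uimc1 and Zfp346 lay between -0.06 and 0.04. The genes beside Nrp2 lay between -0.41 and 0.16 and those beside Plxnc1 between -0.40 and 0.30. Beside Ntn1 they lay between -0.17 and 0.58, the highest being Usp43, which lies 3 measured genes away.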

How the data were processed

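Total RNA of 2 cultures was hybridised to 1 array each. The deposited values are on the log2 scale (2.49 to 14.2 in both arrays) and were made by the authors with RMA in Affymetrix Expression Console, per the submitters' processing notes. RMA corrects background, normalises arrays together and summarises probes. It would hide a shift common to most transcripts and compresses differences of dim genes. The sources used here give no versions, genome build or annotation for this step.

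The platform annotation named 21789 of 35556 probesets with exactly 1 gene, 1621 with several and 12146 with none. All 68 guidance symbols were in the RefSeq gene table of GRCm38.p6, and 63 of the 68 genes have 1 probeset.

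Gene means, differences, a filter at the median of all values, a 2-fold call and a robust SD (1.4826 times the median absolute deviation) in 20 bins of mean expression were computed, with no test, since each group has 1 array. The steps were tested on simulated data. Changes were planted there only in genes with a mean at least 1 above the filter. Plxnc1, Unc5a and Nrp2 have lower means, so the simulation does not cover their levels. The naming rule took called members, up to 4 passing members per family with the largest difference, members below the filter that differed 2-fold (there were 0), members with several probesets, and called or up to 6 effectors. Other genes, the neighbours and the promoter motifs were chosen after the values were seen. The members and gene lists were chosen with earlier results of these data known.

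Alternatives were other filters, removal of a loess trend (fraction 0.3), quantile normalisation, an offset of 32, the brightest probeset, inclusion of probesets with several genes and a 1.5-fold limit. The software was matplotlib 3.10.9, statsmodels 0.14.6, pandas 2.3.3, NumPy 2.4.6 and Python 3.11.15.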

Additional observations from a re-analysis of the deposited data

How the results depend on the processing

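The count of 4 guidance genes at least 2-fold higher became 2 when both arrays had to pass the filter (Ntn1 and Nrp2), 2 with the offset of 32 (Plxnc1 and Unc5a) and 8 at 1.5-fold, and was 4 without a filter, with a filter at the 25th percentile, with the loess trend removed, after quantile normalisation, with the brightest probeset and with probesets of several genes included. The count of 0 at least 2-fold lower became 3 at 1.5-fold and was 0 under the other alternatives. Of the 27 genes that passed in both arrays, 4 were higher and 2 lower at 1.5-fold. None of the 4 was called both under the stricter filter and with the offset. The share of all genes called with the offset is not given here, so the count of 2 has nothing beside it. For effectors, the 2 higher genes became 8 of 50 at 1.5-fold, and the count of 0 lower stayed at 0. Among all genes that passed, 3.24% were higher and 3.8% lower at 1.5-fold. The median of 0.09 over guidance genes was 0.0079 over genes that passed the filter only, 0.027 with the loess trend removed and 0.048 with the offset, and the median of 0.13 over effectors was 0.096 and 0.083 under the last 2. A median was taken to have moved when it shifted by more than 0.167, the SD between probesets of the same gene, divided by the square root of the number of genes. Among 43 named genes, 5 moved by more than 0.167, all with the offset: Plxnc1, Unc5a, Nrp2, Plxnd1 and Dpysl5. Efnb3, at 0.01, was slightly negative with the loess trend removed (-0.05) and after quantile normalisation. The cause of these shifts was not tested, apart from what each setting does by construction. No paired analysis was possible because each group has 1 array. The arrays give no measure of signal over background, so the 29 guidance genes below the filter have no firm level, and no error between cultures is known for any gene.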

Other observations

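Families of neuronal surface proteins outside the guidance families were read after the guidance values were seen: teneurins, Slitrk proteins, neuroligins, neurexins, Lrrtm proteins, contactins, latrophilins and Flrt proteins, which build synapses and hold cells together. Of their 32 measured genes, 11 passed the filter and 0 reached 2-fold, beside 0.92% of all genes that passed at least 2-fold higher and 0.768% lower. The median over the 32 was 0.07. Flrt1, Flrt2, Flrt3 and Cntn2 also stood in the list of other cues and adhesion receptors above. Tenm2, a teneurin that binds latrophilins across the synapse, had the largest difference, with 6.49 with doxycycline and 5.93 without (0.56), and it passed by the array with doxycycline alone. The latrophilin gene Adgrl2, the mean of 8 probesets, had 7.45 against 7.83 (-0.38). Adgrl1 had 10.23 against 10.38 and Tenm3 had 9.21 against 9.39. The 6 contactins and 4 Lrrtm genes were all below the filter in both arrays.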
